A study of Homo sapiens with 24 samples.

Results

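The 51 genes described here encode proteins of the core spliceosome and of small nuclear ribonucleoprotein (snRNP) assembly, out of 16591 gene symbols in the deposited table. They were picked by symbol: the SNRP genes of the Sm, U1 and U2 proteins, the numbered LSM, GEMIN, PRPF, SF3A and SF3B genes, DDX20 and COIL, with PRPF38B left out. This choice was made with earlier results of these data known. SNRPN, LSM7 and GEMIN7 also have symbols of this kind and were not analysed here. The study compared the PRMT5 inhibitor EPZ015666 with its DMSO vehicle in 4 established human cancer cell lines, by stranded sequencing of poly(A) RNA. BT549 and MDAMB436 are labelled as breast cancer lines, and OVCAR8 and COV362 as ovarian cancer lines. BT549 and OVCAR8 cells were sampled after 3 days and after 5 days of 5 µM EPZ015666, COV362 and MDAMB436 cells after 5 days alone. A DMSO group accompanies every EPZ015666 group, which makes 12 groups of 2 libraries, here A and B. No genetic change or further agent is labelled in any group. Whether the pair in a group stems from different cultures is not labelled. All p-values therefore rest on a spread between libraries that may be technical.

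The spliceosome removes introns from pre-messenger RNA. It is built from the U1, U2, U4, U5 and U6 snRNPs, each a small nuclear RNA wrapped by a ring of Sm proteins (LSM proteins for U6) and joined by proteins of its own. PRMT5, an arginine methyltransferase that works with WDR77 and CLNS1A, puts symmetric dimethyl groups on arginines in the tails of the Sm proteins SNRPB, SNRPD1 and SNRPD3, and the SMN complex then loads the Sm ring onto the small nuclear RNA. Loss of PRMT5 activity is known to disturb the splicing of introns in many cell types. The values below are RNA levels. They do not measure protein methylation, protein amounts or splicing.

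The recovered read totals ran from 23.76 M to 44.94 M per library, with a median of 27.78 M. Reads of 4 genes at the ribosomal RNA locus made up a median of 0.289% of a library, but 4.54% in OVCAR8 EPZ015666 day 5 library B and 1.39% in BT549 EPZ015666 day 3 library A. Of the lineage markers, KRT18 reached 7.52 to 185 RPKM and VIM 43.7 to 135 RPKM over the lines, while EPCAM was at most 0.00251 RPKM in BT549, PAX8 at most 0.354 RPKM in any line and GATA3 at most 0.066 RPKM in MDAMB436. The ovarian marker MSLN passed the expression filter in 3 lines and fell under EPZ015666 in all 5 comparisons there, by 0.89 to 2.63 on the log2 scale. In COV362, 3 of 4 epithelial markers rose and 1 fell, and VIM fell in COV362 by 0.32 and rose in MDAMB436 by 0.28 on the log2 scale. In OVCAR8, 1 of 2 tested epithelial markers fell at day 3 and 2 of 2 at day 5. In BT549 at day 5 the 1 tested rose, and in MDAMB436 1 of 2 rose. COL1A1 fell in BT549 by 0.31 at day 3 and 0.42 at day 5, and rose in OVCAR8 at day 5 by 0.14. Their part in the results on spliceosome genes was not tested. In bulk RNA of this kind, fewer cells of a type and less RNA per cell cannot be told apart.

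The deposited unit is RPKM, reads scaled by gene length and library size, in which the authors' length is the whole span of a gene, introns included. RPKM is therefore used below to compare libraries for 1 gene, and levels of different genes are compared per kilobase of exon. Testing in a line required a mean of 1 RPKM or more across its libraries. By that filter 40 of the 51 genes were tested in all 4 lines. GEMIN5 was tested in 3 lines, SNRPF, SNRPA1 and LSM11 in 2, and LSM6, GEMIN2, GEMIN8 and PRPF38A in 1. GEMIN6, PRPF18 and PRPF40B were tested in none. Differences are EPZ015666 minus DMSO in log2(RPKM + 1), which understates the change of genes at low RPKM, and "rose" and "fell" are used for a limma test with a Benjamini-Hochberg adjusted p under 0.05 over all genes tested in that line.

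More of these genes rose than fell under EPZ015666 in 5 of the 6 comparisons under each setting tried, and in OVCAR8 at day 5 the balance depended on the setting. In BT549 at day 3, 10 of 42 tested genes rose and 1 fell, where 20% of all 6249 genes tested were called (9.22% higher and 10.8% lower). In BT549 at day 5, 16 of 42 rose and 1 fell, against 40.4% of all genes called (17.7% higher and 22.7% lower). In OVCAR8, 13 of 45 rose and 5 fell at day 3, against 37.0% of all genes called (15.6% higher and 21.4% lower). At day 5 in OVCAR8, 16 of 45 rose and 12 fell, against 56.2% of all genes called (21.1% higher and 35.1% lower). There 14 rose and 14 fell in 1 limma fit of all 24 libraries, 15 and 14 with no filter on low values, and 8 and 11 with DMSO of day 3 as vehicle. With median-of-ratios scaling 18 rose and 9 fell, and 49.9% of the calls among all genes were higher, against 37.6% without it. In COV362, 31 of 45 rose and 4 fell, against 70.8% of all genes called (39.3% higher and 31.5% lower). In MDAMB436, 18 of 41 rose and 4 fell, against 42.2% of all genes called (19.0% higher and 23.2% lower). The share of spliceosome genes called in either direction was close to that of all genes in BT549 at day 5, 40.5% against 40.4%, so the counts differ from the background there in direction and not in number.

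The median difference of the tested spliceosome genes was 0.075 in BT549 at day 3, 0.11 in BT549 at day 5, 0.069 in OVCAR8 at day 3, 0.025 in OVCAR8 at day 5, 0.21 in COV362 and 0.13 in MDAMB436. The medians over all genes tested lay between -0.043 and 0.032. In total reads, the 51 genes took 0.667% and 0.663% of a library in BT549 EPZ015666 cells at day 5, against 0.572% and 0.565% in DMSO cells. In OVCAR8 at day 5 they took 0.636% and 0.599% under EPZ015666, against 0.578% and 0.580% under DMSO. In COV362 they took 0.793% and 0.803% under EPZ015666 and 0.647% and 0.649% under DMSO, and in MDAMB436 0.806% in both EPZ015666 libraries and 0.724% and 0.719% under DMSO. The EPZ015666 libraries were above the DMSO libraries of their day in each of these lines, with the smallest gap at OVCAR8 library B, the library with 4.54% ribosomal reads. In OVCAR8 at day 5 the gap was uneven between groups of genes. The U4/U6.U5 tri-snRNP genes, described below, took 0.173% and 0.159% under EPZ015666, against 0.125% and 0.132% under DMSO. Other PRPF genes were also higher. The LSM ring genes took less, 0.0395% and 0.0387% against 0.0479% and 0.0449%, and the shares of the Sm and the SF3 genes overlapped.

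**Figure D1:**
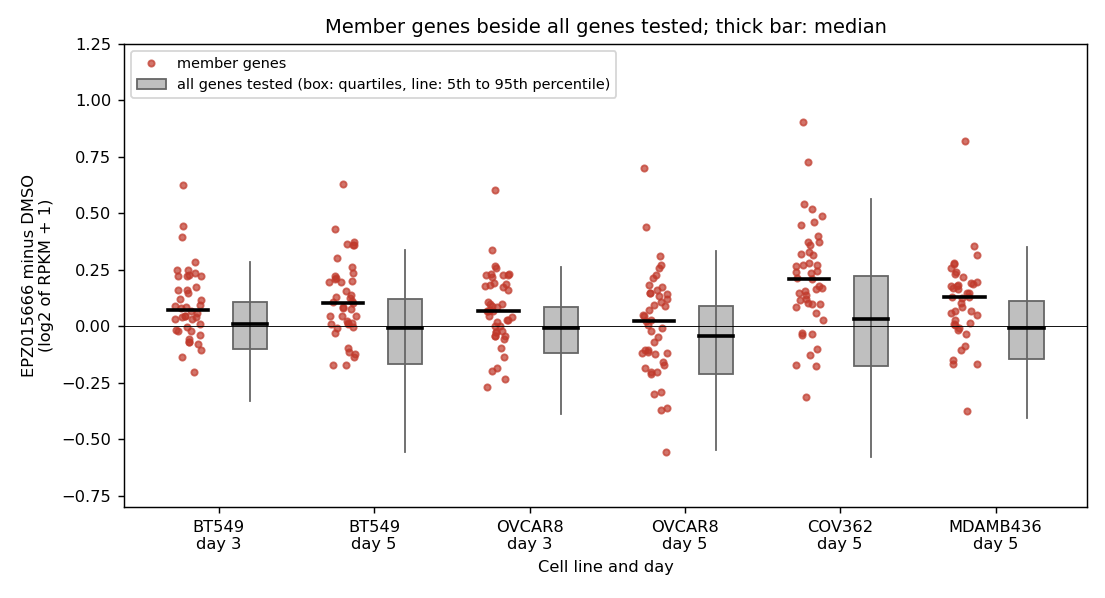
The log2 difference between EPZ015666 and DMSO is plotted for each tested spliceosome gene (red points, black bar at the median) beside all genes tested (box from the lower to the upper quartile, line over the central range, black bar at the median) in the 6 comparisons. The red medians run from 0.025 in OVCAR8 at day 5 to 0.21 in COV362.

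These counts depend on single libraries where each group has only a pair. Leaving out a library weakens the test for all genes, and whether spliceosome genes lost more calls than other genes was not tested. The 11 calls of BT549 at day 3 became 5 without EPZ015666 day 3 library B, 7 without DMSO day 3 library B and 6 without any 1 of the 4 day 5 libraries, which share the estimate of spread. The 17 calls of BT549 at day 5 became 7 without EPZ015666 library A, 9 without EPZ015666 library B or DMSO library B and 11 without DMSO library A. The 18 calls of OVCAR8 at day 3 became 11 without DMSO library B, and the 28 at day 5 became 17 without EPZ015666 library A and 21, 12 of them higher and 9 lower, without EPZ015666 library B. The 22 calls of MDAMB436 became 7 without EPZ015666 library B, 10 without EPZ015666 library A and 14 without DMSO library A. Without DMSO library A, 10 rose and 10 fell in OVCAR8 at day 5. In the other fits that left out 1 library, more of the genes were called higher than lower.

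**Figure D2:**
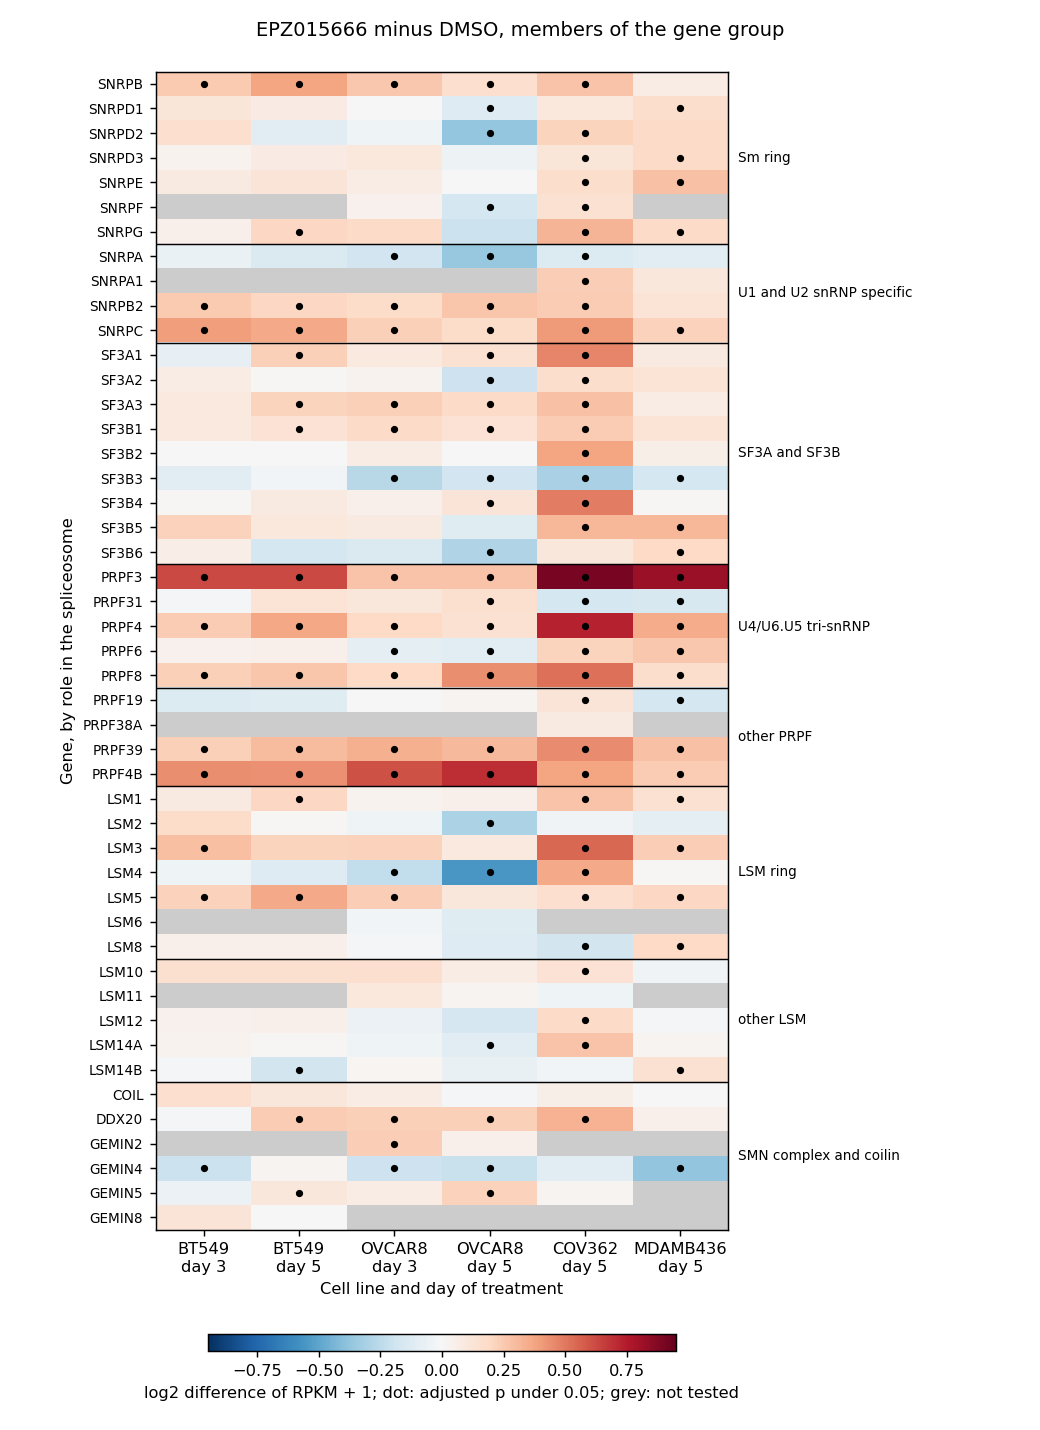
Each row is a spliceosome gene, ordered by role, and each column a line and day. Colour gives the EPZ015666 minus DMSO difference in log2(RPKM + 1), a dot marks an adjusted p under 0.05 and grey marks genes below the expression filter. PRPF3, PRPF4, PRPF4B, PRPF8, PRPF39 and SNRPC are dotted and positive in each column.

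PRPF3, PRPF4, PRPF4B, PRPF8, PRPF39 and SNRPC rose in each of the 6 comparisons. With DMSO of day 3 as vehicle at day 5, the rises of PRPF8 in BT549 (0.11, adjusted p = 0.16) and of PRPF4 in OVCAR8 (0.011, adjusted p = 0.838) were not called, while the other 4 genes kept their calls in both lines. These are 6 of the 40 genes tested throughout, where 1.33% of 4721 genes tested in all 6 comparisons rose in every one. None of the 40 fell in all 6, against 4.09% of all genes. A positive difference in all 6 comparisons, called or not, was found for 14 of the 40 genes, against 13.3% of all genes, and a negative one for SF3B3 and SNRPA, against 15.9% of all genes. The promoters of PRPF4B, PRPF4 and SNRPC are shown because these genes moved together, and that of LSM4 because its difference changed sign between lines. Each runs from 250 bases before to 50 bases after the gene's start, in RefSeq on GRCh38.p14, and reads 5′ to 3′ on the gene's strand. Capitals mark TTCCGG or its reverse complement CCGGAA, letters found in many ETS family binding sites. Shorter or other forms of such sites are not marked. The PRPF4B window is chr6:4021050-4021349 on the plus strand, the PRPF4 window chr9:113275408-113275707 on the plus strand, the SNRPC window chr6:34757255-34757554 on the plus strand and the LSM4 window chr19:18323027-18323326 on the minus strand.
PRPF4B: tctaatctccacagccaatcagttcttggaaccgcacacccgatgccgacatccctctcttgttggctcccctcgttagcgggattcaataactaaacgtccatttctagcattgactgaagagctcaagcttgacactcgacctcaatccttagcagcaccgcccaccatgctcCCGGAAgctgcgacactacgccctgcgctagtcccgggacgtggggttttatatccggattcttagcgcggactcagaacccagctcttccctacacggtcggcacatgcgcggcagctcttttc
PRPF4: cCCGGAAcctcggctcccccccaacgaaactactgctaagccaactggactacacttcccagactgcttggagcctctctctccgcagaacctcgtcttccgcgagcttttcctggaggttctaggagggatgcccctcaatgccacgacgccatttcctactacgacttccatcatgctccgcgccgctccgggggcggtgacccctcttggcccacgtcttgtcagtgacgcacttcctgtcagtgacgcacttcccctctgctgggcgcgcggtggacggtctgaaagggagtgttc
SNRPC: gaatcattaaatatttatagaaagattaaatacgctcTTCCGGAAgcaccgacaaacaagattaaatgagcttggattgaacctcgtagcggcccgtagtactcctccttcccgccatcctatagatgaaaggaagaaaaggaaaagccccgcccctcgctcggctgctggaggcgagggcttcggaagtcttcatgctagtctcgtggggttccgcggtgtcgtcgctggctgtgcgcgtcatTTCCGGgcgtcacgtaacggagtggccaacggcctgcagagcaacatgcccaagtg
LSM4: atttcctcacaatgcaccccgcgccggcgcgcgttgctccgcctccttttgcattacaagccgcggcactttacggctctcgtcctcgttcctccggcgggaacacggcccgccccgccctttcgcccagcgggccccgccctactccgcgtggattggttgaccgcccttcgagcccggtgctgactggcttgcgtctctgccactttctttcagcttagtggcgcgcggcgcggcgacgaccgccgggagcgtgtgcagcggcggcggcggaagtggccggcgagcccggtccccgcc
The letters occur once in PRPF4B, once in PRPF4 and 3 times in SNRPC, where the first pair overlaps, and not in this window of LSM4. Genes not shown break this pattern. PRPF8, which also rose in each comparison, lacks the letters, and SNRPD2, which also changed sign between lines, has them among its 3 windows. A link between the letters and the drug differences was not tested.

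Promoter windows were found for 43 of the 51 genes. PRPF3, PRPF39, LSM1, LSM6, LSM14A, SF3B3 and SNRPD1 are among those that have none in the table used. TTCCGG on either strand stood in 25 of the 43 (58.1%), against 26.6% of 15843 protein-coding genes. GGGCGG, the GC box, stood in 62.8% of the 43 and 64.3% of all, and CCAAT in 41.9% and 42.1%. CACGTG, the E-box, stood in 4.65% and 10.9%, and TATAAA, the TATA box, in 4.65% and 12.4%. Each motif was searched on both strands, a match is no evidence of binding, and the shares describe the promoters without regard to the drug.

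The U4/U6.U5 tri-snRNP is the pre-assembled particle that joins the spliceosome before its activation. Of its 5 genes here 3 rose in BT549 at each day (20% of all genes called at day 3 and 40.4% at day 5). In OVCAR8, 3 rose and 1 fell at day 3 (37.0%), and 4 rose and 1 fell at day 5 (56.2%). Likewise 4 rose and 1 fell in COV362 (70.8%) and in MDAMB436 (42.2%). PRPF3, on chromosome 1 from 150321476 to 150353195 of the plus strand on GRCh38, encodes a U4/U6 protein that contacts both small nuclear RNAs. Its RPKM was 3.73 and 3.76 in BT549 EPZ015666 cells at day 5, against 2.04 and 2.10 in DMSO cells. In COV362 it was 11.6 and 12.1 under EPZ015666 and 5.90 and 5.86 under DMSO, and in MDAMB436 14.3 and 14.6 under EPZ015666 and 7.62 and 7.86 under DMSO. Both EPZ015666 libraries were above both DMSO libraries in each comparison. OVCAR8 had the lowest level and the smallest difference, with 1.58 and 1.60 RPKM under EPZ015666 and 1.16 and 1.12 under DMSO at day 5.

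On the log2 scale PRPF3 rose by 0.63 ± 0.040 (SE) in BT549 at day 5 (adjusted p = 7.9e-05), by 0.27 ± 0.029 in OVCAR8 at day 5 (adjusted p = 0.000547), by 0.91 ± 0.030 in COV362 (adjusted p = 0.00017) and by 0.82 ± 0.038 in MDAMB436 (adjusted p = 0.00195). The ratio of mean RPKM was 1.81, 1.39, 2.02 and 1.86 in these lines. At day 3 the rise was 0.63 in BT549 and 0.27 in OVCAR8, the same size as at day 5 in either line. It was the largest rise among the spliceosome genes in both days of BT549, in COV362 and in MDAMB436.

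PRPF4, the U4/U6 partner of PRPF3, had 11.9 and 11.8 RPKM in COV362 EPZ015666 cells, against 6.58 and 6.92 in DMSO cells. It rose by 0.73 ± 0.032 there (adjusted p = 0.000229), and by 0.36 ± 0.037 in MDAMB436 (adjusted p = 0.00398). In BT549 it rose by 0.24 at day 3 and 0.37 at day 5, and in OVCAR8 by 0.19 and 0.14. PRPF8, the large U5 protein that holds the catalytic RNA core, lies on chromosome 17 from 1650629 to 1684882 of the minus strand. It had 36.3 and 35.0 RPKM in OVCAR8 EPZ015666 cells at day 5 and 25.1 and 27.0 in DMSO cells, with no overlap, and rose by 0.44 ± 0.049 (adjusted p = 0.000653). Its rise was 0.52 in COV362, 0.27 and 0.23 in BT549 at days 5 and 3, 0.19 in OVCAR8 at day 3 and 0.17 in MDAMB436.

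The other 2 tri-snRNP genes did not move alike in the lines. PRPF6, which bridges U5 and U4/U6, rose in COV362 by 0.22 and in MDAMB436 by 0.26, and fell in OVCAR8 by 0.096 at day 3 and by 0.10 at day 5. Its RPKM in MDAMB436 was 3.13 and 3.21 under EPZ015666 and 2.53 and 2.45 under DMSO, and in OVCAR8 at day 5 it was 3.40 and 3.31 under EPZ015666 and 3.58 and 3.77 under DMSO. PRPF31, a U4 protein needed to form the tri-snRNP, fell in COV362 by 0.17 and in MDAMB436 by 0.15 and rose in OVCAR8 at day 5 by 0.15, where its difference from DMSO of day 3 was -0.031 and was not called. For PRPF31 the RPKM in COV362 was 2.32 and 2.33 under EPZ015666, below the 2.80 and 2.69 under DMSO.

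Among the other PRPF genes, PRPF4B and PRPF39 rose in each comparison. PRPF4B, a kinase that phosphorylates tri-snRNP proteins, lies on chromosome 6 from 4021267 to 4064983 of the plus strand. Its RPKM was 1.97 and 1.91 in OVCAR8 EPZ015666 cells at day 5, against 0.844 and 0.778 in DMSO cells, a ratio of 2.39. At day 3 it was 2.20 and 2.31 under EPZ015666 and 1.12 and 1.15 under DMSO. The rise in OVCAR8 was 0.70 ± 0.031 at day 5 (adjusted p = 3.34e-05) and 0.61 ± 0.031 at day 3 (adjusted p = 0.000119), the largest among the spliceosome genes at either day of this line. In BT549 PRPF4B rose by 0.45 at day 3 and 0.43 at day 5, in COV362 by 0.38 and in MDAMB436 by 0.24. The order of lines was therefore not that of PRPF3, whose smallest rise was in OVCAR8.

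PRPF39, a protein that joins the U1 snRNP in alternative splicing, had 1.60 and 1.68 RPKM in COV362 EPZ015666 cells and 0.902 and 0.970 in DMSO cells, and rose by 0.45 ± 0.032 (adjusted p = 0.000558). In the other comparisons its rise lay between 0.22 in BT549 at day 3 and 0.34 in OVCAR8 at day 3, and EPZ015666 and DMSO libraries did not overlap in any of them. PRPF39 overlaps 2 genes on its own strand, so a part of its reads could belong to them. PRPF19, the ubiquitin ligase of the complex that carries its name, rose in COV362 by 0.12 and fell in MDAMB436 by 0.17, with 14.6 and 14.7 RPKM under EPZ015666 and 16.7 and 16.5 under DMSO in MDAMB436. The MDAMB436 call of PRPF19 was lost without DMSO library A (adjusted p = 0.0602), EPZ015666 library A (0.138) or EPZ015666 library B (0.125). PRPF38A, a protein of the pre-catalytic spliceosome, was tested in COV362 alone, where its difference was 0.087 and did not pass (adjusted p = 0.0949).

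**Figure D3:**
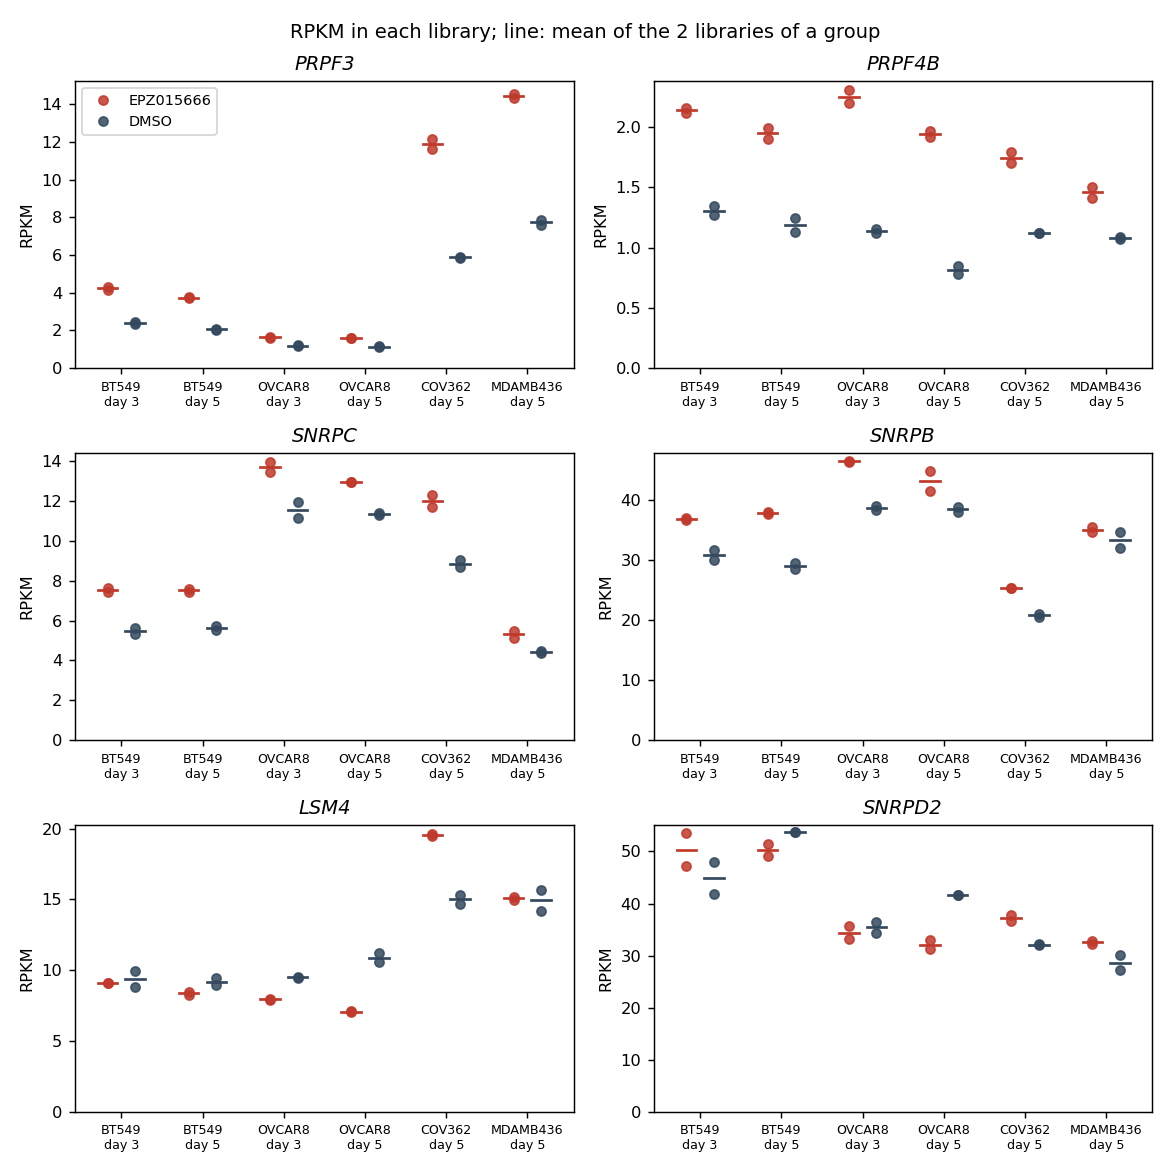
RPKM of PRPF3, PRPF4B, SNRPC, SNRPB, LSM4 and SNRPD2 in each library (points), with EPZ015666 left of DMSO in each line and day and a line at the mean of the 2 libraries. PRPF3, PRPF4B and SNRPC are higher under EPZ015666 in each pair of groups, while LSM4 and SNRPD2 are lower in OVCAR8 at day 5 and higher in COV362.

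SNRPC is the U1 protein that steadies the pairing of U1 RNA with the splice site at the start of the intron. It lies on chromosome 6 from 34757406 to 34773794 of the plus strand. It had 7.42 and 7.65 RPKM in BT549 EPZ015666 cells at day 3, against 5.34 and 5.62 in DMSO cells, and 11.7 and 12.3 in COV362 EPZ015666 cells, against 9.06 and 8.67. The groups did not overlap in any comparison. It rose by 0.40 ± 0.044 in BT549 at day 3 (adjusted p = 0.0021), 0.36 in BT549 at day 5, 0.23 and 0.18 in OVCAR8 at days 3 and 5, 0.40 in COV362 and 0.22 in MDAMB436. SNRPC has 18 pseudogenes by name in the annotation, and how the authors counted reads that match several copies is not given in the sources used here.

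SNRPA, the U1 protein that binds a stem-loop of U1 RNA, went the other way. Its RPKM in OVCAR8 at day 5 was 6.17 and 6.0 under EPZ015666, below the 8.12 and 8.09 under DMSO, and it fell by 0.36 ± 0.035 (adjusted p = 0.00038). It also fell by 0.18 in OVCAR8 at day 3 and by 0.13 in COV362. In BT549 the differences of -0.067 at day 3 and -0.14 at day 5, and in MDAMB436 the -0.10, did not pass the test. SNRPB2, a U2 protein that binds the U2 RNA with SNRPA1, rose in 5 of 6 comparisons by 0.17 to 0.26, with 0.13 in MDAMB436 not called. SNRPA1 was tested in COV362, where it rose by 0.24, and in MDAMB436, where 0.11 did not pass.

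The Sm ring genes include the substrates of PRMT5, and SNRPB, whose product carries such a methylated tail, was called higher in each comparison but MDAMB436. SNRPB lies on chromosome 20 from 2461634 to 2470853 of the minus strand and overlaps 1 gene on that strand. Its RPKM in BT549 at day 5 was 38.0 and 37.7 under EPZ015666, against 29.5 and 28.5 under DMSO, and it rose by 0.37 ± 0.049 (adjusted p = 0.00133). At day 3 in BT549 it was 37.0 and 36.6 under EPZ015666 and 29.9 and 31.7 under DMSO, a rise of 0.25. In OVCAR8 SNRPB had 46.4 and 46.6 RPKM under EPZ015666 and 39.0 and 38.3 under DMSO at day 3, and 44.8 and 41.5 under EPZ015666 and 38.9 and 38.1 under DMSO at day 5. The groups did not overlap in BT549, OVCAR8 or COV362.

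The rise of SNRPB in OVCAR8 was 0.26 at day 3 and 0.16 at day 5, and the day 5 call was lost without DMSO library B (adjusted p = 0.0726) or EPZ015666 library A (adjusted p = 0.067). In COV362 SNRPB had 25.4 RPKM in both EPZ015666 libraries and 21.1 and 20.6 under DMSO, a rise of 0.27. In MDAMB436 the values overlapped, with 34.6 and 35.5 under EPZ015666 and 34.7 and 32.0 under DMSO, and the difference of 0.07 was not called (adjusted p = 0.327).

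The other Sm genes rose mainly in COV362 and MDAMB436. Of the 7, 6 rose in COV362 (70.8% of all genes called) and 4 of 6 tested rose in MDAMB436 (42.2%), with none lower in either. In OVCAR8 at day 5, 1 rose and 3 fell (56.2%). SNRPD3, another methylated Sm protein gene, rose by 0.18 in MDAMB436 and 0.12 in COV362, and SNRPD1, the last of the methylated ones, rose by 0.17 in MDAMB436 and fell by 0.12 in OVCAR8 at day 5. SNRPE rose by 0.28 in MDAMB436 and 0.17 in COV362 and SNRPG by 0.32 in COV362, 0.20 in BT549 at day 5 and 0.18 in MDAMB436. SNRPE has 9 and SNRPG 20 pseudogenes by name, so their reads are less certain.

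SNRPD2, an Sm protein without the methylated tail, had 31.3 and 32.9 RPKM in OVCAR8 EPZ015666 cells at day 5, against 41.7 in both DMSO libraries. In COV362 it had 37.8 and 36.7 under EPZ015666, against 31.9 and 32.2 under DMSO. It fell by 0.37 ± 0.049 in OVCAR8 at day 5 (adjusted p = 0.00128) and rose by 0.21 ± 0.027 in COV362 (adjusted p = 0.00276). SNRPF, which was above the filter in OVCAR8 and COV362, did the same at lower levels. Its RPKM was 0.846 and 0.805 in OVCAR8 EPZ015666 cells at day 5 and 1.05 in both DMSO libraries, and 2.16 and 2.19 in COV362 EPZ015666 cells and 1.84 and 1.89 in DMSO cells. SNRPF fell by 0.17 in the OVCAR8 comparison and rose by 0.15 in that of COV362.

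**Figure D4:**
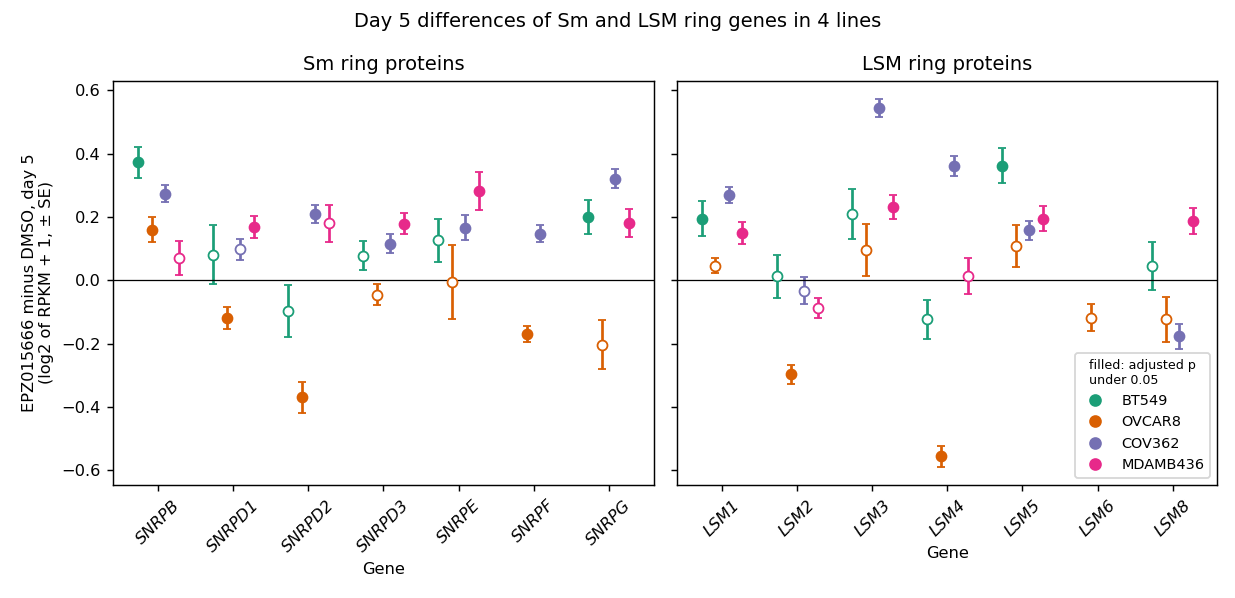
Day 5 differences (EPZ015666 minus DMSO, log2 of RPKM + 1, bars ± SE) of the Sm genes (left) and the LSM ring genes (right) in the 4 lines. Filled points have an adjusted p under 0.05. LSM4 lies at -0.56 in OVCAR8 and at 0.36 in COV362, and SNRPD2 at -0.37 and 0.21.

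The LSM2 to LSM8 proteins form the ring on U6 RNA, and LSM1 takes the place of LSM8 in a cytoplasmic ring that promotes mRNA decapping. LSM3 had 6.35 and 6.54 RPKM in COV362 EPZ015666 cells, against 4.07 and 4.16 in DMSO cells, and rose by 0.54 ± 0.028 (adjusted p = 0.000286). In MDAMB436 it had 5.73 and 6.02 under EPZ015666 and 4.87 and 4.85 under DMSO and rose by 0.23, a call that was lost without EPZ015666 library B (adjusted p = 0.0726). In BT549 at day 3 it had 5.71 and 6.85 under EPZ015666 and 4.99 and 4.91 under DMSO and rose by 0.29. Its EPZ015666 libraries were above its DMSO libraries in each of these comparisons. That BT549 call was lost without any 1 of 7 of the 8 BT549 libraries, with adjusted p of 0.0592 to 0.163, and was kept only without EPZ015666 day 3 library A. The differences of 0.21 in BT549 at day 5 and of 0.22 and 0.096 in OVCAR8 at days 3 and 5 did not pass the test.

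LSM4 lies on chromosome 19 from 18306230 to 18323274 of the minus strand and encodes the ring protein whose tail holds symmetric dimethyl arginines like those of SNRPB. Its RPKM in OVCAR8 at day 5 was 7.11 and 7.05 under EPZ015666, against 11.2 and 10.6 under DMSO. At day 3 in OVCAR8 it was 7.92 and 7.97 under EPZ015666 and 9.46 and 9.53 under DMSO, and in COV362 it was 19.7 and 19.5 under EPZ015666 and 15.3 and 14.7 under DMSO. The groups did not overlap in these 3 comparisons, and the direction in COV362 was opposite to that in OVCAR8. LSM4 fell by 0.56 ± 0.032 in OVCAR8 at day 5 (adjusted p = 6.41e-05) and by 0.23 at day 3, and rose by 0.36 ± 0.031 in COV362 (adjusted p = 0.000858). In MDAMB436 it had 15 and 15.2 under EPZ015666 and 15.7 and 14.2 under DMSO, and neither this nor BT549 gave a call.

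LSM2 fell in OVCAR8 at day 5 by 0.30, with 7.29 and 7.71 RPKM under EPZ015666 and 9.44 and 9.43 under DMSO, and was called in no other drug comparison. Against DMSO of day 3 its OVCAR8 day 5 difference was -0.025 and was not called (adjusted p = 0.548). LSM5 rose in 5 of 6 comparisons by 0.16 to 0.36, with 0.11 in OVCAR8 at day 5 not called. LSM1 rose by 0.27 in COV362, 0.20 in BT549 at day 5 and 0.15 in MDAMB436. LSM8 fell by 0.18 in COV362 and rose by 0.19 in MDAMB436. The COV362 call of LSM8 was lost without DMSO library B (adjusted p = 0.0677) or EPZ015666 library A (adjusted p = 0.0532). LSM6 was tested in OVCAR8 alone and was not called.

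Of the 5 LSM genes outside the rings, 3 rose in COV362 (70.8% of all genes called) and 1 of 4 tested rose in MDAMB436 (42.2%). At day 5, 1 of 4 tested fell in BT549 (40.4%) and 1 of 5 fell in OVCAR8 (56.2%). None was called at day 3 in BT549 (20%) or OVCAR8 (37.0%). LSM10 and LSM11 encode the proteins that replace a pair of Sm proteins in the U7 snRNP, which processes histone mRNA ends. LSM10 rose by 0.14 in COV362 and was not called in the other 5 comparisons, and LSM11 was not called in OVCAR8 or COV362. LSM12 rose by 0.18 in COV362. LSM14A, a protein of cytoplasmic processing bodies, rose by 0.27 in COV362 and fell by 0.11 in OVCAR8 at day 5. Its relative LSM14B fell by 0.17 in BT549 at day 5, with 11.5 and 11.1 RPKM under EPZ015666 and 13 and 12.8 under DMSO, the only fall among the spliceosome genes there, and rose by 0.15 in MDAMB436. The BT549 call of LSM14B was lost without any 1 of the 4 day 5 libraries, with adjusted p of 0.0856 to 0.144.

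The SF3A and SF3B complexes are the parts of the U2 snRNP that recognise the branch site. None of their 9 genes was called in BT549 at day 3 (20% of all genes called), and 3 rose at day 5 (40.4%). In OVCAR8, 2 rose and 1 fell at day 3 (37.0%) and 4 rose and 3 fell at day 5 (56.2%). In COV362, 7 rose and 1 fell (70.8%), and in MDAMB436 2 rose and 1 fell (42.2%). SF3B4, which binds RNA before the branch site, had 70.4 RPKM in both COV362 EPZ015666 libraries, against 49.7 and 50.1 in DMSO libraries, and rose by 0.49 ± 0.024 (adjusted p = 0.000264). SF3B4 also rose in OVCAR8 at day 5, by 0.12, but against DMSO of day 3 it was called lower there (-0.12, adjusted p = 0.0261). Its difference was 0.0087 in MDAMB436 and 0.084 in BT549 at day 5, neither of them called.

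SF3A1 rose by 0.46 in COV362, 0.22 in BT549 at day 5 and 0.15 in OVCAR8 at day 5. Against DMSO of day 3, its day 5 differences of 0.028 in BT549 (adjusted p = 0.721) and 0.068 in OVCAR8 (adjusted p = 0.218) were not called. SF3B2 rose in COV362 alone, by 0.38, with differences of -0.0044 to 0.073 in the other 5 comparisons. SF3A3 rose in 4 comparisons by 0.18 to 0.28, and SF3B1, which contacts the branch site itself, in 4 by 0.14 to 0.24. SF3B5, a small subunit, had 144 and 146 RPKM in MDAMB436 EPZ015666 cells and 121 and 112 in DMSO cells and rose by 0.32 there and by 0.32 in COV362. SF3B6, which lies next to the branch site, rose by 0.19 in MDAMB436 and fell by 0.29 in OVCAR8 at day 5, and SF3A2 rose by 0.17 in COV362 and fell by 0.20 in OVCAR8 at day 5.

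SF3B3, a scaffold subunit, was the SF3 gene that fell in several lines. Its RPKM was 4.88 and 5.08 in COV362 EPZ015666 cells, below the 6.45 and 6.38 in DMSO cells, and 6.52 and 6.18 in OVCAR8 EPZ015666 cells at day 3, below 7.74 and 7.94. It fell by 0.31 ± 0.030 in COV362 (adjusted p = 0.00112), by 0.27 and 0.18 in OVCAR8 at days 3 and 5 and by 0.16 in MDAMB436. The MDAMB436 call was lost without EPZ015666 library A (adjusted p = 0.0939) or library B (adjusted p = 0.125). SF3B3 overlaps 2 genes on its strand. In BT549 the differences of -0.11 and -0.029 at days 3 and 5 did not pass.

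The SMN complex loads the Sm ring, and coilin, encoded by COIL, organises the Cajal bodies in which snRNPs mature. DDX20, the helicase of the complex, rose by 0.24 in BT549 at day 5, 0.23 in OVCAR8 at both days and 0.33 in COV362, where it had 4.27 and 4.34 RPKM under EPZ015666 and 3.18 and 3.27 under DMSO. Against DMSO of day 3, neither day 5 rise of DDX20 was called, with 0.081 in BT549 (adjusted p = 0.289) and -0.0035 in OVCAR8 (adjusted p = 0.936). Its partner GEMIN4 fell in 4 of the 6 comparisons. It had 7.92 and 8.29 RPKM in MDAMB436 EPZ015666 cells, against 11 and 10.6 in DMSO cells, and fell by 0.38 ± 0.041 (adjusted p = 0.00444). In OVCAR8 it fell by 0.20 at day 3 and by 0.21 at day 5, and in BT549 it fell by 0.20 at day 3, with 12.1 and 12.2 RPKM under EPZ015666 and 13.6 and 14.7 under DMSO. Its differences of 0.023 in BT549 at day 5 and of -0.10 in COV362 were not called, and the BT549 values overlapped there. The day 3 calls of GEMIN4 were lost without any 1 of the 4 OVCAR8 day 3 libraries (adjusted p of 0.0574 to 0.13), and in BT549 without any 1 of the 8 libraries but DMSO day 3 library A (adjusted p of 0.0764 to 0.136).

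GEMIN5, which reads the small nuclear RNA for the complex, lies on chromosome 5 from 154887416 to 154938209 of the minus strand. It had 1.36 and 1.28 RPKM in OVCAR8 EPZ015666 cells at day 5, against 0.966 and 1.03 in DMSO cells, and rose by 0.22 ± 0.036 (adjusted p = 0.00322). In BT549 at day 5 it had 2.24 and 2.29 under EPZ015666 and 2.04 and 2.0 under DMSO and rose by 0.11, a call lost without any 1 of the 4 day 5 libraries (adjusted p of 0.122 to 0.193) or of the 2 EPZ015666 day 3 libraries (0.0537). In COV362 the values overlapped, with 1.58 and 1.72 under EPZ015666 and 1.54 and 1.66 under DMSO. In MDAMB436 they did not, with 0.844 and 0.820 under EPZ015666 below 1.06 and 1.05 under DMSO, but GEMIN5 was under the filter there. GEMIN2, which holds the Sm proteins, was tested in OVCAR8 and rose at day 3 by 0.23, and GEMIN8 was tested in BT549 without a call under the drug. COIL was called in none of the 6 comparisons, with differences of -0.021 to 0.16.

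The genes below the filter had reads enough for a second test on the reads themselves. With limma-voom on reads recovered from the RPKM values, chosen after the data were seen, all 51 genes were tested in each line. It called 13 of them higher and 1 lower in BT549 at day 3 (25.7% of all genes called), 22 and 1 at day 5 (42.8%), 18 and 5 in OVCAR8 at day 3 (38.5%), 36 and 6 in COV362 (70.6%) and 23 and 5 in MDAMB436 (48.3%). In OVCAR8 at day 5 it called 16 higher and 18 lower (55.8%), against 16 and 12 by limma on RPKM. GEMIN2 was called higher in BT549 at day 3 (0.40) and day 5 (0.42), in COV362 (0.37) and in MDAMB436 (0.29), where it was below the RPKM filter. GEMIN8 was called lower in COV362 (-1.02), with 0.308 and 0.377 RPKM under EPZ015666 and 0.803 and 0.628 under DMSO, and in OVCAR8 at day 5 (-0.60). In OVCAR8 its mean RPKM was 0.217 under EPZ015666 at day 5, against 0.328 in DMSO cells at day 5 but 0.201 in DMSO cells at day 3. It had as few as 103 reads in a library. GEMIN5 was called lower in MDAMB436 (-0.35, adjusted p = 3.02e-05). In BT549 at day 5, GEMIN6, a small SMN complex protein, was higher by 0.27, LSM11 by 0.43, LSM6 by 0.40 and SNRPF by 0.23. SNRPA1 was lower in OVCAR8 at day 5 (-0.23). PRPF18, which acts in the second step of splicing, was higher in OVCAR8 at day 3 (0.66) and in COV362 (0.31), and PRPF40B was lower in COV362 (-0.39).

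Averaged over the 4 lines at day 5, 27 of the 40 genes tested in each line rose and 5 fell, against 74.7% of all genes called (36.3% higher and 38.4% lower). The 40 had a median of 0.11, and all 4702 genes one of -0.0024. The 6 largest rises were 0.66 ± 0.013 for PRPF3 (adjusted p = 2.6e-11), 0.44 for PRPF4B, 0.40 for PRPF4, 0.35 for PRPF8, 0.33 for PRPF39 and 0.29 for SNRPC. The 5 falls were SNRPA (-0.18), SF3B3 (-0.17), GEMIN4 (-0.17), LSM2 (-0.10) and LSM4 (-0.076), the last of them an average over a fall in OVCAR8 and a rise in COV362. SNRPB rose by 0.22 and LSM3 by 0.27 on average. By role, 4 of 5 tri-snRNP genes, 5 of 6 Sm genes, 6 of 9 SF3 genes and 3 of 6 LSM ring genes rose.

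The size of the drug difference varied between lines for most of the genes. An F test of the 4 day 5 differences called 35 of the 40 genes, against 79.8% of all genes, and SF3B1, SNRPB2, PRPF39 and LSM10 were among those not called. The smallest adjusted p among the spliceosome genes was that of PRPF3 (9.46e-07), whose difference spanned 0.63 between its extremes in COV362 and OVCAR8. LSM4 followed with a span of 0.92 (adjusted p = 3.51e-06), then SF3B4 with 0.48 (3.1e-05) and SNRPD2 with 0.58 (3.26e-05). PRPF3 and SF3B4 had the same sign in each line, while LSM4 and SNRPD2 had opposite signs. COV362 held the largest rise for PRPF3, LSM4, SF3B4 and SNRPD2.

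In BT549 the drug difference at day 5 was not distinguished from that at day 3 for any of the 42 genes by limma, where 5.97% of all genes were called (1.52% higher and 4.45% lower) and 1631 genes had an unadjusted p under 0.05. limma-voom called 1 of the 51 genes, against 10.5% of all genes. The smallest adjusted p were those of SF3A1 (0.0676, difference between days 0.30), GEMIN5 (0.087, 0.17), DDX20 (0.0902, 0.26) and GEMIN4 (0.138, 0.23). In OVCAR8, 4 of 45 genes had a lower drug difference at day 5 and none a higher one, against 7.46% of all genes called (2.31% higher and 5.15% lower; 57.4% of the calls were higher with median-of-ratios scaling and 30.9% without), while limma-voom called 4 higher and 11 lower, against 15.6% of all genes. LSM4 had a difference of -0.56 at day 5 and of -0.23 at day 3 (adjusted p = 0.027). SNRPF had -0.17 at day 5 and 0.044 at day 3 (adjusted p = 0.0323), LSM2 -0.30 and -0.044 (adjusted p = 0.0353) and SNRPD2 -0.37 and -0.042 (adjusted p = 0.0467). All 4 calls were lost when any 1 of the 8 OVCAR8 libraries was left out, with adjusted p of 0.0539 to 0.133, and then at most 6 of all genes tested were called.

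The DMSO libraries themselves differed between the days. In OVCAR8, 6 of 45 genes were higher and 9 lower in DMSO cells at day 5 than at day 3, against 36.7% of all genes called (20.7% higher and 15.9% lower). LSM2 was higher by 0.27, with 9.44 and 9.43 RPKM at day 5 and 7.69 and 7.60 at day 3, SNRPD2 by 0.23 and LSM4 by 0.18, 3 of the 4 genes above. PRPF4B (-0.24), SF3B4 (-0.24), DDX20 (-0.23) and GEMIN5 (-0.26) were lower. The 15 calls became 9 without DMSO day 5 library A, 6 without DMSO day 3 library A and 7 without DMSO day 3 library B. In BT549, LSM2 (0.30) and GEMIN8 (0.15) were higher and PRPF31 (-0.18) lower at day 5, against 16.7% of all genes called (10.7% higher and 6.02% lower). limma-voom called 9 of the 51, against 20.8% of all genes, and the 3 limma calls became 0 without DMSO day 5 library A or B, EPZ015666 day 5 library A or B or DMSO day 3 library A.

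The choice of vehicle day bears on the day 5 counts. With DMSO of day 3 in place of DMSO of day 5, an alternative chosen after the data were seen, 7 of the 16 BT549 rises were called in the same direction and none had the opposite sign, and the 1 fall was not called. In OVCAR8, 7 of the 16 rises and 8 of the 12 falls were called in the same direction, and 5 of the rises had the opposite sign. Among those 5 were SF3B4, which was called lower (-0.12, adjusted p = 0.0261), and GEMIN5 (-0.039), PRPF31 (-0.031) and DDX20 (-0.0035), which were not called. LSM3, which had no call in OVCAR8, also changed sign, to -0.032. The OVCAR8 falls no longer called were those of SNRPD2 (-0.14, adjusted p = 0.064), LSM2 (-0.025, adjusted p = 0.548), SF3A2 (-0.038, adjusted p = 0.524) and LSM14A (-0.082, adjusted p = 0.0944).

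Levels of different genes were set side by side as reads per kilobase of exon, scaled to library size, in DMSO cells at day 5. Whether the authors counted reads over exons alone or over whole genes is not given in the sources used here. If introns were counted, these levels and the drug differences include intronic reads, and genes with long introns such as SNRPD3 and PRPF6, whose spans are 21.4 and 17.1 times their exons, would rank too high. SNRPB was highest, with a mean of 209 in BT549, 278 in OVCAR8, 150 in COV362 and 241 in MDAMB436. SNRPD2 (124 over the 4 lines), SF3B5 (113) and SNRPC (97.1) came next, the median of the 51 genes was 24.8, and PRPF40B was lowest at 0.704. LSM3 stood at 26.2 and GEMIN5 at 12.8. PRPF3, the gene with the largest average rise, was near the middle of the order and ranged from 6.73 in OVCAR8 to 45.7 in MDAMB436.

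**Figure D5:**
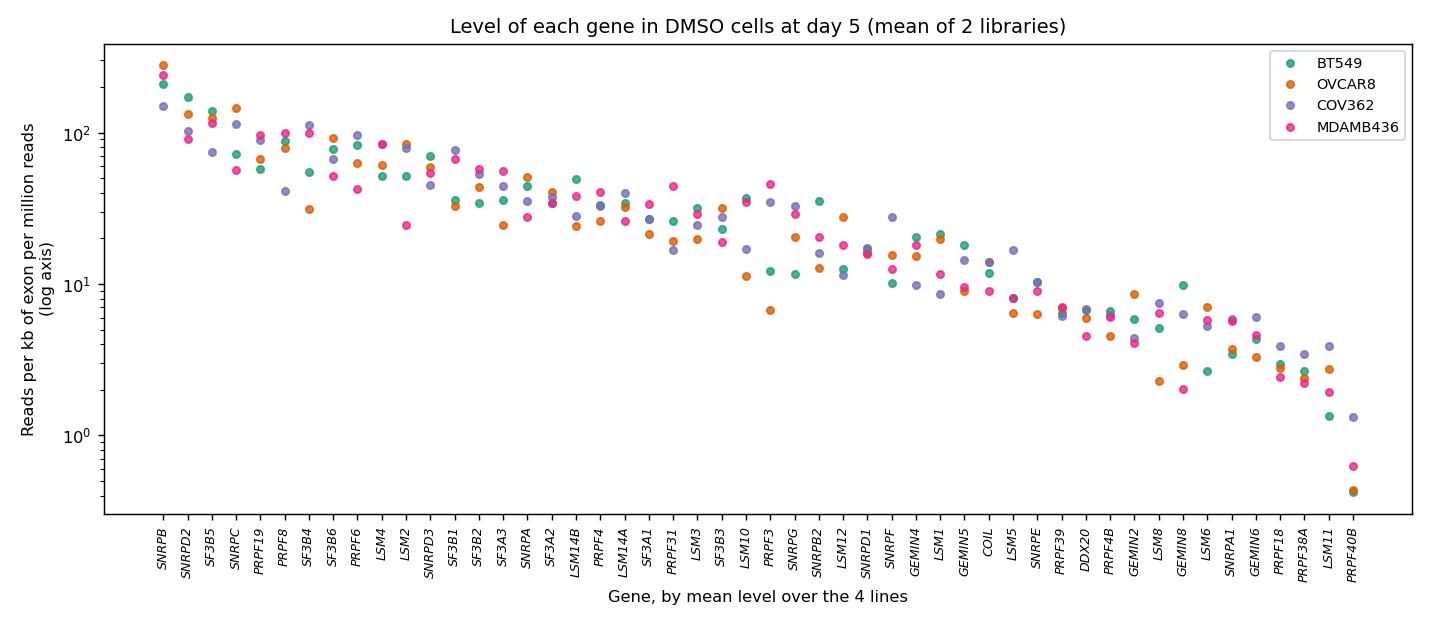
Reads per kilobase of exon, scaled to library size (log axis), of the spliceosome genes shown in DMSO cells at day 5, as the mean of 2 libraries in each line (points), ordered by the mean over the 4 lines. The order runs from SNRPB at 219 to PRPF40B at 0.704.

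The vehicle levels differed between lines for 39 of the 40 genes, against 98.7% of all genes, with PRPF39 not called. The smallest adjusted p were those of PRPF3, SF3B4, LSM2 and SF3B1, whose log2(RPKM + 1) spanned 2.03, 1.77, 1.48 and 1.11 between lines. All of these genes spanned more between DMSO cells of the lines than they differed with the drug in any line. The median span between lines over all genes tested was 0.915.

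A list of 70 other spliceosome and snRNP genes, written from general knowledge, was counted for comparison, with 65 of them in the table. In BT549, 9 rose and 2 fell of 54 tested at day 3, against 20% of all genes called (9.22% higher and 10.8% lower). At day 5 there, 18 rose and 2 fell, against 40.4% (17.7% higher and 22.7% lower). In OVCAR8 it was 25 and 3 of 54 at day 3 (37.0% of all genes called) and 27 and 8 at day 5 (56.2%). In COV362 it was 38 and 3 of 55 (70.8%) and in MDAMB436 18 and 2 of 56 (42.2%). Averaged over the lines at day 5, 37 rose and 6 fell of 50 (74.7%). In BT549 and MDAMB436, the share of the list called in either direction was close to or below that of all genes. In OVCAR8, COV362 and the average it was above that share. In BT549 at day 3 the DEAD-box helicases DDX46, which acts in U2 binding, and DDX23, a U5 helicase, rose by 0.51 and 0.45, chosen here after their values were seen as the largest rises of the list there.

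The drug's target and its partners in Sm methylation also changed. PRMT5 rose by 0.30 in BT549 at day 5, 0.26 and 0.10 in OVCAR8 at days 3 and 5, 0.37 in COV362 and 0.18 in MDAMB436, and its difference of 0.025 in BT549 at day 3 was not called. In COV362 it had 3.17 and 3.23 RPKM under EPZ015666 and 2.07 and 2.44 under DMSO. WDR77 rose by 0.23 in BT549 at day 5, 0.17 in OVCAR8 at day 5 (adjusted p = 0.0489) and 0.10 in COV362, and fell by 0.30 in MDAMB436. In OVCAR8 its mean RPKM was 4.32 under EPZ015666 at day 5, against 3.74 in DMSO cells at day 5 but 4.88 in DMSO cells at day 3. In BT549 these means were 4.34, 3.54 and 4.24. CLNS1A fell by 0.097 in OVCAR8 at day 5 and was not called in the other comparisons in which it was tested. Its mean RPKM in OVCAR8 was 1.36 under EPZ015666 at day 5, against 1.52 in DMSO cells at day 5 and 1.37 in DMSO cells at day 3.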

How the data were processed

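RNA levels were measured in 24 libraries of poly(A) RNA, prepared as stranded libraries per the labels' protocols. The authors deposited RPKM values, made with featureCounts on GRCh38 per the submitters' processing notes. The aligner, annotation, strand setting and tool version are not given in those notes. Setting the values against annotated lengths showed that the RPKM length is the whole GENCODE v29 gene span, so reads could be recovered for 16559 of 16591 symbols, with 100% of nonzero values under 1000 reads whole within 0.02. The main test was limma 3.58.1 (R 4.3.3) with a mean-dependent prior on log2(RPKM + 1), two-sided, over genes averaging 1 RPKM or more in the line (in each line for tests over lines), with Benjamini-Hochberg adjustment and a threshold of 0.05. Groups of a line shared 1 estimate of spread. RPKM is already scaled to depth, and low genes are less precise. limma-voom on the recovered reads (minimum mean CPM 1), no filter, a pseudocount of 0.1, median-of-ratios scaling, a replicate block, 1 fit of all 24 libraries and leaving out each library were alternatives. The tests of the drug comparisons and of their day 5 average were run on simulated RPKM with known changes. That simulation used independent noise of equal size, without depth or shared library effects, and did not cover differences between days or lines. One gene of the 51 enters the counts and is not reported here by name. The genes and lists were chosen with earlier results of these data known. Named genes were the 3 largest rises and falls per drug comparison, the 6 largest each way on average, the 4 smallest adjusted p per difference between lines or days, and SNRPB, LSM3 and GEMIN5, with others by role.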

Additional observations from a re-analysis of the deposited data

Results flagged for a closer look

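The drug difference at day 5 differed between the 4 lines for PRPF3, LSM4, SF3B4 and SNRPD2, by an F test of the difference itself. The span between the highest and lowest line was 0.631 for PRPF3, 0.917 for LSM4, 0.48 for SF3B4 and 0.578 for SNRPD2 on the log2 scale. For LSM4 and SNRPD2 the sign was positive in COV362 and negative in OVCAR8. These are the 4 genes with the smallest adjusted p out of the 35 of 40 called, where 79.8% of all genes were called.

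In OVCAR8 the drug difference at day 5 was lower than at day 3 by a test of that difference for LSM4 (-0.325), SNRPF (-0.212), LSM2 (-0.253) and SNRPD2 (-0.328). They are 4 of 45 genes tested, a share near the 7.46% of all genes called. DMSO cells at day 5 had more LSM4, LSM2 and SNRPD2 RNA than DMSO cells at day 3, and SNRPF differed by -0.0017. Each of the 4 calls was lost when any 1 of the 8 OVCAR8 libraries was left out.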

How the results depend on the processing

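Of 82 results for named genes, all 82 kept direction and call with a pseudocount of 0.1, and 78 did with limma-voom, where the other 4 gained a call. The replicate block ended the call of 11, no filter of 9 and median-of-ratios scaling of 2, and over all fits without 1 library 89 of the repeats lost a call and 2 changed sign. With 1 library left out, the count of spliceosome genes called was 5 to 9 (11 in full) in BT549 at day 3, 7 to 18 (17) at day 5, 11 to 19 (18) in OVCAR8 at day 3, 17 to 30 (28) at day 5, 29 to 35 (35) in COV362 and 7 to 18 (22) in MDAMB436. It was 31 to 33 (32) for the average, 33 to 36 (35) for differences between lines, 38 to 39 (39) for DMSO levels, 0 to 4 (3) and 6 to 14 (15) for DMSO days in BT549 and OVCAR8, and 0 (0 and 4) for the drug difference between days in both. One fit of all 24 libraries gave 18 calls in BT549 at day 3, 11 for its DMSO days, and 5 and 9 for the drug difference between days in BT549 and OVCAR8. limma-voom gave 9 for the BT549 DMSO days and 1 and 15 for the drug difference between days in BT549 and OVCAR8. No filter gave 12 in MDAMB436, 0 for the BT549 DMSO days and 1 for the OVCAR8 difference between days. DMSO of day 3 as vehicle gave 11 in BT549 at day 5. Median-of-ratios scaling gave 5 for the BT549 DMSO days, and moved the share of higher calls among all genes from 37.6% to 49.9% in OVCAR8 at day 5 (spliceosome genes 18 higher and 9 lower) and from 30.9% to 57.4% for the OVCAR8 difference between days (0 and 3). No called spliceosome gene changed sign with that scaling or limma-voom. Reversed values were those of GEMIN5 in COV362 without DMSO library A (-0.00508) or EPZ015666 library B (-0.0117), in a range of -0.0117 to 0.0657 over the libraries left out, and of GEMIN5 (-0.039) and LSM3 (-0.032) in OVCAR8 at day 5 against DMSO of day 3. Of 14 group pairs, 2 had a correlation of their A minus B deviations over 0.1 (-0.503 to 0.214), with 0.214 between DMSO and EPZ015666 in COV362. With a single deviation per group, this cannot show whether the replicate letters pair the libraries. The replicate block gave 7 calls in BT549 at day 3, 0 for the BT549 DMSO days and 0 for the OVCAR8 difference between days. The cause of these shifts was not tested. Genes with few reads, such as PRPF40B with 69 to 577 per library, are limited by depth.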
